A study of Homo sapiens with 6 samples.

Results

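The nuclear-encoded subunits of the mitochondrial respiratory chain and ATP synthase were followed in Kasumi-1 cells after knockdown of FBL. Members were taken by gene symbol. They were the numbered NDUFA, NDUFB, NDUFC, NDUFS and NDUFV genes of complex I and SDHA to SDHD of complex II. The UQCR genes and CYC1 of complex III, 11 COX genes of complex IV and the ATP5 genes of complex V were also taken. This rule leaves out NDUFAB1, a complex I subunit, which is given with other genes of the pathway. The symbols matched 116 rows of the count table, 37 of which carry pseudogene names and were dropped, leaving 79 members of 31966 genes (37 for complex I, 4 for II, 9 for III, 11 for IV and 18 for V). Of these, 78 passed the filter on low counts. Kasumi-1 is an established human acute myeloid leukaemia line with the RUNX1-RUNX1T1 fusion. In the FBL knockdown group (n = 3) the cells expressed an inducible shRNA against FBL, and in the control group (n = 3) an inducible shRNA against luciferase. Both groups were given doxycycline at 100 ng/ml for 72 h, so that doxycycline and an expressed hairpin were common to all 6 libraries, and the labels name 1 hairpin per group. The labels do not say whether replicates were separate cultures, so p-values measure the spread between these libraries, which may be technical.

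Complexes I to IV pass electrons from NADH and succinate to oxygen, complexes I, III and IV pump protons as they do so, and complex V uses the proton gradient to make ATP. Each complex except II joins subunits encoded in the mitochondrial genome with many more encoded in the nucleus. The catalytic subunits that carry flavin, iron-sulfur clusters, haem or the nucleotide sites have bacterial relatives, whereas most small accessory subunits have none and serve assembly or stability. Acute myeloid leukaemia cells are known for their reliance on oxidative phosphorylation. FBL encodes fibrillarin, the methyltransferase of box C/D small nucleolar ribonucleoproteins.

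Deposited totals were 85556322 to 95023102 counts in knockdown libraries and 88541034 to 103148412 in control libraries. FBL stood at 54.0, 32.4 and 44.9 CPM (counts relative to the library total, scaled with TMM factors, which make the bulk of genes comparable between libraries) in knockdown libraries, against 580, 550 and 544 CPM in control libraries (log2 fold change -3.67 ± 0.16, SE; edgeR adjusted p = 3.93e-06). The Kasumi-1 markers RUNX1T1, KIT, CD34 and MPO were detected in every library, and 2 of the 4 differed between groups. MPO, a granule peroxidase of myeloid cells, was lower (5413 CPM in knockdown and 7256 CPM in control libraries on average, log2 fold change -0.42 ± 0.11, edgeR adjusted p = 0.0134). CD34, a progenitor surface antigen, was higher (4.03 CPM in knockdown and 2.55 CPM in control libraries, 0.66 ± 0.13, edgeR adjusted p = 0.0024). Their part in the members' changes was not tested. Of 10 markers of T, epithelial, fibroblast and endothelial cells, 8 were in the table and summed to 0.423 to 0.499 CPM in knockdown libraries and 0.465 to 0.604 CPM in controls. Transcripts of the mitochondrial genome took 14.7% to 18.8% of counts in knockdown libraries and 12.4% to 15.2% in controls. A fit that left out these genes called 9 members lower and 9 higher, beside 2860 lower and 3193 higher over all genes. With these genes kept, 13 members were lower and 8 higher, beside 3140 and 2920 over all genes. Control replicate 2 stood apart from control replicate 1 in GC-rich transcripts. Across the 78 tested members, the log2 ratio of control replicate 1 to control replicate 2 had an SD of 0.31 and a Spearman rho of -0.64 with transcript GC content, and the SDs of the other pairs within a group lay between 0.12 and 0.21. Knockdown replicate 1 also differed by GC content, with a rho of 0.58 for its ratio to knockdown replicate 2 and 0.56 to knockdown replicate 3, against -0.20 between knockdown replicates 2 and 3. In the controls, the ratios of replicate 1 to 3 and of replicate 2 to 3 gave -0.38 and 0.58. These are bulk data, in which fewer cells and less RNA per cell cannot be told apart.

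The chain as a whole did not move in 1 direction, and the share of its members called was below that of all genes. Members fell after FBL knockdown in complexes I, II, III and V, and others rose in complexes I, III, IV and V. Of 78 tested members, 13 fell and 8 rose (edgeR quasi-likelihood test, adjusted p below 0.05 over all genes). That is 26.9% of members, compared with 32.8% of all 18486 tested genes and 43.9% of those at 10 CPM or more. The 13 lower members were 8 of complex I, 1 each of complexes II and III and 3 of complex V, against a background of 17.0% of genes called lower. The 8 higher members were 4 of complex V, 2 of complex III and 1 each of complexes I and IV, against a background of 15.8% called higher. The median log2 fold change, knockdown over control, was -0.01 over members and -0.01 over all tested genes. All 3 knockdown libraries lay below all 3 controls for 20 members and above them for 13, and the groups overlapped for 45 of 78. Groups did not overlap for 45.2% of all tested genes (23.1% below, 22.1% above), near the share of members. At 100 CPM or more 11 of 44 members were called (25%), compared with 41.3% of all genes at that level. The count of calls changed when 1 library was left out, which also left fewer libraries for the test. It was 4 lower and 4 higher without knockdown replicate 3, 6 and 3 without knockdown replicate 2, 5 and 4 without control replicate 3, 12 and 4 without control replicate 1, and 12 and 12 without knockdown replicate 1, with 21.4%, 21%, 22.3%, 31.2% and 30% of all genes called in these fits. Without control replicate 2, which stood apart in GC-rich transcripts, 13 members were lower and 7 higher, with 36.9% of all genes called. Upper-quartile scaling turned the balance, with 9 members lower and 14 higher, beside 2528 lower and 3597 higher calls over all genes. With the stricter filter 11 were lower and 12 higher, beside 2131 and 1924 of the 9174 genes that it left. Of those genes 44.2% were called, a larger share than in the main fit. SDHA, ATP5F1A, NDUFS1, NDUFB10 and UQCR10 kept their calls in all 20 alternative settings, which changed the scaling, filter, tool or correction or left out 1 library.

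**Figure D1:**
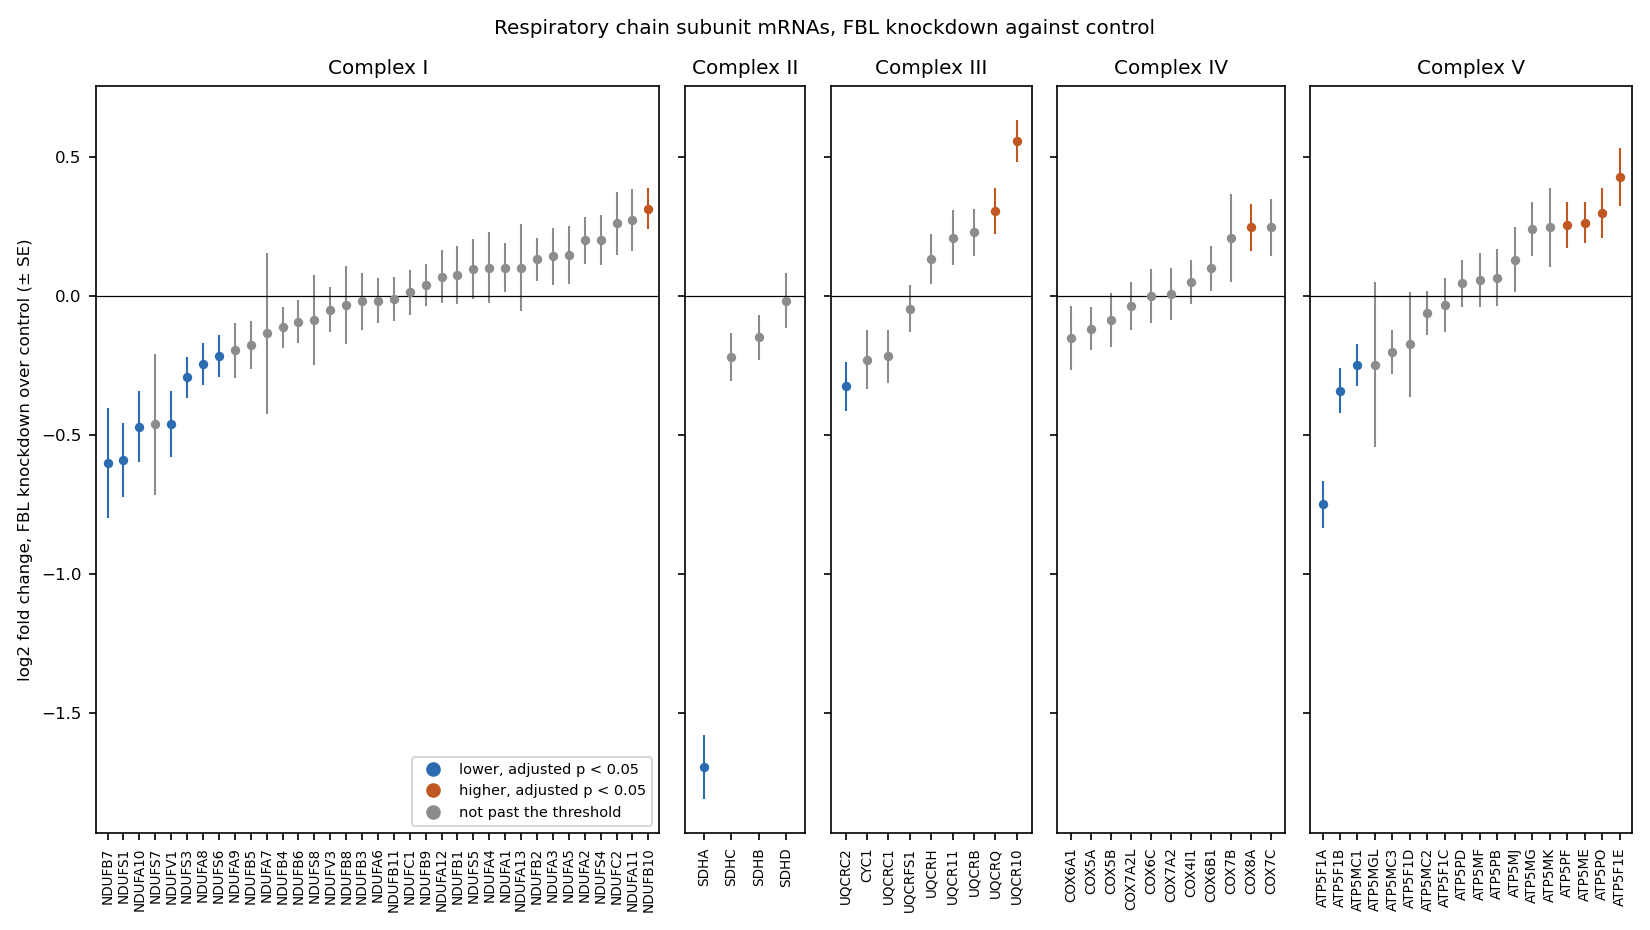
Log2 fold change of 77 tested subunit mRNAs, FBL knockdown over control, with its SE (y axis), for the members of complexes I to V in order of their change (x axis). Blue points are 12 lower and orange points 8 higher members past the threshold. SDHA lies lowest at -1.69, UQCR10 at 0.56 highest, and most members of complex IV lie near 0.

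The start regions of the members with the largest calls in each direction are shown, as far as the promoter table holds them. Each run holds 250 bases before and 50 after the gene start, from RefSeq on GRCh38.p14, in the direction of transcription. Capitals mark matches on either strand to 5 short motifs: GCGCATGC of NRF1, CCGGAAG of GABPA and other ETS factors, AAGATGG of YY1, GGGCGGG of SP1 (a GC box), and ACANNTCCC, a part of the element bound by THAP11 and ZNF143 that was added after these sequences had been read and is marked here without a count over other promoters. Matches can overlap, since CCGGAAG ends with the letters AAG that open AAGATGG, and ACANNTCCC ends with the CCC that opens the GC box on the other strand. The first 2 genes fell and the other 3 rose.
SDHA (chr5:218070-218369, plus strand): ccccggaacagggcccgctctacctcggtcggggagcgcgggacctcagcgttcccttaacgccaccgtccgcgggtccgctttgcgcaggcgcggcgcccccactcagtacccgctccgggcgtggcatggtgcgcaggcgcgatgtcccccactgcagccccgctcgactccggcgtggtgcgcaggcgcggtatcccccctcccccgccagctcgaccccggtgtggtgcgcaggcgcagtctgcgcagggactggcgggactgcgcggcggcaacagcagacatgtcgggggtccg
ATP5F1A (chr18:46104178-46104477, minus strand): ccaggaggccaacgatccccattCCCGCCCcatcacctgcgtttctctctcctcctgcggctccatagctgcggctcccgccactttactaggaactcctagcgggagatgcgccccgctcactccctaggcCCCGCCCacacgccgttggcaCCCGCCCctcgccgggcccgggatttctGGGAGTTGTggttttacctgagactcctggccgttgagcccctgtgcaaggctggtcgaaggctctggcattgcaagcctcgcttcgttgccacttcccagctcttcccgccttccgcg
UQCR10 (chr22:29767119-29767418, plus strand): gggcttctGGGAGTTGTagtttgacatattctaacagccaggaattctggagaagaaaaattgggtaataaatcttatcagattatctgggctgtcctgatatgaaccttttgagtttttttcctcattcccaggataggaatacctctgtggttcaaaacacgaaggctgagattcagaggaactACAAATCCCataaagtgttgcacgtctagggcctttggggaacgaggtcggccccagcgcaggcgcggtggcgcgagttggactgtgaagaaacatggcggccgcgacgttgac
ATP5F1E (chr20:59032286-59032585, minus strand): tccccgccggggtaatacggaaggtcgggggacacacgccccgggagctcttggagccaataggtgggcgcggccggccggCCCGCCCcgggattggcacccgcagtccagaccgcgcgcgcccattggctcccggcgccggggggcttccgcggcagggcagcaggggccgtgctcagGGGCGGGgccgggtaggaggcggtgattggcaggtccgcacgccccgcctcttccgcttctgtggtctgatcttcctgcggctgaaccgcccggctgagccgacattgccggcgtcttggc
NDUFB10 (chr16:1959288-1959587, plus strand): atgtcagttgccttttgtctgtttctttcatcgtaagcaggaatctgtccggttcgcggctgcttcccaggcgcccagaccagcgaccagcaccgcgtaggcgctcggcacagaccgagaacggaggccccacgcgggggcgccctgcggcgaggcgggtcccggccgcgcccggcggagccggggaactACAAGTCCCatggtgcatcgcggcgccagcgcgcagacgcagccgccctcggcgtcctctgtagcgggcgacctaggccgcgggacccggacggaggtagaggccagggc
ATP5F1A carried 3 GC boxes and 1 ACANNTCCC match, UQCR10 carried ACANNTCCC on both strands, and NDUFB10 carried it once. ATP5F1E carried a GC box on each strand, and SDHA carried none of the 5 motifs as spelled above in this window. Only these exact letters were searched. GCGCAGGC, a near variant of the NRF1 letters, recurs in the SDHA window and is present in that of UQCR10. Such variants were not counted. Promoter sequences were matched for 64 of the 79 members. The NRF1 letters were present in 13 of these 64 (20.3%) and in 3.05% of 35116 promoters in all. GABPA letters were present in 20 (31.3%, against 10.3% in all), YY1 letters in 16 (25%, against 5.84%) and GC boxes in 19 (29.7%, against 33.1%). The 64 were taken as 1 sequence per gene symbol. The 35116 were not reduced in this way or limited to genes tested here, so the 2 sets are not alike. By direction, the NRF1 letters were in 2 of 11 lower and 2 of 8 higher members with a sequence, the GABPA letters in 3 and 4, the YY1 letters in 1 and 3, and the GC box in 4 and 1. Of 44 uncalled members with a sequence, 9 held the NRF1 letters, 13 the GABPA letters, 12 the YY1 letters and 13 the GC box.

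Complex II, succinate dehydrogenase, also belongs to the citric acid cycle and has 4 subunits, all encoded in the nucleus. SDHA (ENSG00000073578, GENCODE v29 on GRCh38, chr5:218241-256700, plus strand) encodes the flavoprotein that oxidises succinate. It stood at 20.2, 15.3 and 18.0 CPM in knockdown libraries, against 63.7, 53.4 and 55.8 CPM in control libraries. The groups were far apart, and the control mean was 3.23 times the knockdown mean. Its log2 fold change was -1.69 ± 0.12 (SE; edgeR adjusted p = 1.71e-05), and over the 20 alternative settings it ranged from -1.79 to -1.34. SDHA has pseudogenes that can share its reads: SDHAP1 averaged 1.73 CPM in knockdown and 2.42 CPM in control libraries, and SDHAP3 0.428 and 1.37 CPM. Both copies were lower as well, at -0.49 ± 0.13 and -1.68 ± 0.18 (edgeR adjusted p = 0.0129 and 0.000118), and they were far below SDHA in level.

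The partners of SDHA did not pass the test. SDHB, the iron-sulfur subunit, had 106, 121 and 114 CPM in knockdown libraries and 130, 125 and 124 CPM in controls (log2 fold change -0.15 ± 0.08, edgeR adjusted p = 0.186). SDHC, a membrane anchor that holds haem, had 76.3, 79.1 and 82.5 CPM in knockdown libraries and 98.5, 83.9 and 94.6 CPM in controls (-0.22 ± 0.09, edgeR adjusted p = 0.0748). In SDHB and SDHC every knockdown library lay below every control, by a small margin. SDHD, the other anchor, had 13.4, 15.5 and 15.7 CPM in knockdown libraries and 16.2, 14.3 and 14.6 CPM in controls, which overlap (-0.02 ± 0.10, edgeR adjusted p = 0.917). Per length, SDHA was at 2.12 ± 0.317 RPKM (CPM per kilobase of gene length, SD, n = 3) in knockdown libraries and 6.88 ± 0.618 RPKM in controls, while SDHB was at 46.1 ± 2.57 and 51.3 ± 1.17 RPKM, SDHC at 5.59 ± 0.163 and 6.53 ± 0.512 RPKM, and SDHD at 5.22 ± 0.374 and 5.31 ± 0.351 RPKM. In RPKM, SDHA was the lowest of the 4 in the knockdown group, while in the control group it was above SDHD and within 1 SD of SDHC. The assembly factors SDHAF1 to SDHAF4, of which SDHAF2 attaches flavin to SDHA, all missed the threshold.

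**Figure D2:**
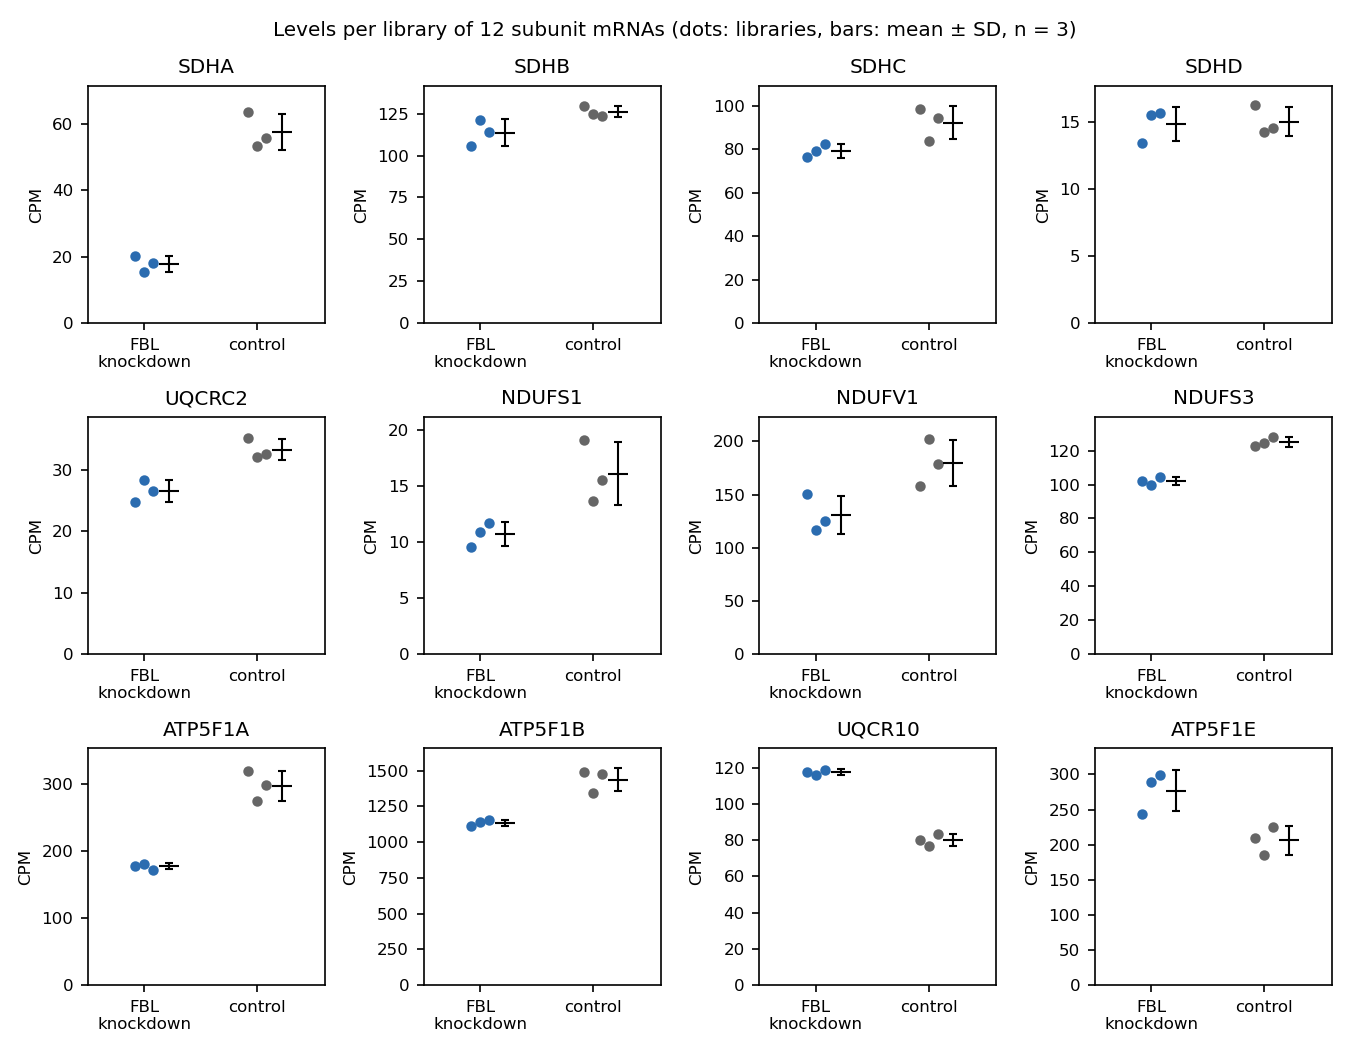
CPM (y axis, from 0) of 12 subunit mRNAs in the 3 FBL knockdown and 3 control libraries (x axis). Dots are libraries, and black dashes with bars are the mean with SD. SDHA is at 15.3 to 20.2 CPM in knockdown and 53.4 to 63.7 CPM in control libraries, while SDHD overlaps between groups, and UQCR10 and ATP5F1E are higher in knockdown libraries.

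Complex I oxidises NADH and reduces ubiquinone. Among its 36 tested members 8 were called lower and 1 higher, and the median log2 fold change was -0.02. Its nuclear core subunits carry the flavin and iron-sulfur clusters and line the quinone site. Of the 5 tested core subunits described here, 3 fell and 0 rose (median -0.46), while among the 30 members outside the core 4 fell and 1 rose (median 0.03). Over all tested genes 17.0% were called lower and 15.8% higher, and over those at 10 CPM or more 27.7% and 16.2%. The 2 sets of subunits also differed in median gene length, at 4523 and 1915 bases, and the part of position in the enzyme was not tested.

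NDUFS1 (ENSG00000023228, chr2:206114817-206159603, minus strand), the largest subunit with several iron-sulfur clusters, had 9.51, 10.9 and 11.7 CPM in knockdown libraries and 19.1, 13.6 and 15.6 CPM in controls (-0.59 ± 0.13, edgeR adjusted p = 0.00629). Its call held in all settings, with a range from -0.70 to -0.30. The value of -0.30 is on log2(RPKM + 1), where the pseudocount shrinks changes of low genes. NDUFV1, which binds NADH and flavin, had 151, 116 and 125 CPM in knockdown libraries and 158, 202 and 179 CPM in controls (-0.46 ± 0.12, edgeR adjusted p = 0.012). The groups of NDUFV1 were close, and its call was lost without knockdown replicate 2, without knockdown replicate 3 and with the replicate block. NDUFS3, a Q module core subunit, had 102, 99.9 and 104 CPM in knockdown libraries and 123, 125 and 128 CPM in controls, tight groups that did not overlap (-0.29 ± 0.07, edgeR adjusted p = 0.0118). Its call was lost with the replicate block and without control replicate 3, knockdown replicate 2 or knockdown replicate 3.

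NDUFS7 and NDUFS8, which carry the clusters nearest the quinone, were not called. NDUFS7 had 77.3, 59.5 and 67.0 CPM in knockdown libraries and 54.6, 138 and 87.5 CPM in controls (-0.46 ± 0.25, edgeR adjusted p = 0.189). Its control values span the knockdown range. Without control replicate 1 it was called lower (-0.73, edgeR adjusted p = 0.00419), and without control replicate 2 it was at -0.07. NDUFS8 had 168, 136 and 147 CPM in knockdown libraries and 119, 203 and 156 CPM in controls (-0.09 ± 0.16, edgeR adjusted p = 0.717). The same spread between control replicates 1 and 2 was present in the accessory subunit NDUFB7, with 121, 92.4 and 104 CPM in knockdown libraries and 109, 214 and 159 CPM in controls. NDUFB7 was called lower (-0.60 ± 0.20, edgeR adjusted p = 0.0379) although its groups overlap, and the call was lost in 11 of 20 settings. It was at -0.34 without control replicate 2. Transcript GC content was 65.0% for NDUFB7, 60.8% for NDUFS7 and 57.9% for NDUFS8, above the member median of 47.5%. NDUFS7 also shares 2693 of 7533 exon bases with AC005329.1 and 1007 with AC005329.3, both on the opposite strand. In controls these had 33.6, 68.1 and 48.5 CPM and 11.6, 39.0 and 22.7 CPM, and neither was called (edgeR adjusted p = 0.319 and 0.139). The part of GC content or shared exons in the spread of NDUFS7 was not tested.

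NDUFV2, a core subunit of the NADH end, was listed at 0.0868, 0.0867 and 0.0903 CPM in knockdown libraries and 0.0429, 0.0307 and 0.138 CPM in controls, and it was the member that did not pass the filter. NDUFA7 (0.168 ± 0.0282 CPM in knockdown and 0.185 ± 0.0241 CPM in control libraries) and NDUFA13 (2.05 ± 0.249 and 1.91 ± 0.286 CPM; SD, n = 3 each) were also listed far below the other subunits. In GENCODE v29, 771 of the 2711 exon bases of NDUFV2 are shared with another gene on the same strand, as are 456 of 1413 for NDUFA7 and 437 of 2708 for NDUFA13. Members at higher levels share exons in this way as well: 175 of 507 bases in COX8A, 675 of 1999 in NDUFB8, 721 of 3670 in NDUFS3, 655 of 3336 in ATP5PO and 423 of 5057 in NDUFV1. How reads in shared exons were counted is not given in the sources used here, so all these levels are uncertain.

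The N module, where NADH is oxidised, had 7 tested members, of which 3 fell (NDUFS1, NDUFV1 and NDUFS6) and 0 rose, with a median of -0.05. The membrane arm had 20 nuclear members, of which 3 fell and 1 rose (median 0.03). The shares called were 42.9% in the N module and 20% in the membrane arm. Over all genes at 10 CPM or more 43.9% were called, 27.7% lower and 16.2% higher. NDUFA10 had 14.4, 14.4 and 14.3 CPM in knockdown libraries and 23.4, 15.9 and 20.3 CPM in controls, separated from the lowest control by a narrow gap (-0.47 ± 0.13, edgeR adjusted p = 0.0164). NDUFA8 fell by 0.24 ± 0.08 (log2, edgeR adjusted p = 0.0285) and NDUFS6 by 0.22 ± 0.08 (edgeR adjusted p = 0.0483), both without overlap. The call of NDUFS6 was lost in 15 of 20 settings, that of NDUFA8 in 7 and that of NDUFA10 in 5. Both NDUFA8 and NDUFA10 lost it without control replicate 3, knockdown replicate 2 or knockdown replicate 3. NDUFB10 (ENSG00000140990, chr16:1959508-1961975, plus strand), an accessory membrane subunit, rose: it had 134, 135 and 136 CPM in knockdown libraries and 105, 111 and 110 CPM in controls (0.31 ± 0.07, edgeR adjusted p = 0.00823, 0.29 to 0.38 over settings). The groups of NDUFB10 were tight and well apart. NDUFA4, named for complex I and now assigned to complex IV, was at 0.10 ± 0.13 (edgeR adjusted p = 0.576). The remaining members of complex I, none of them called, ranged from -0.20 for NDUFA9 to 0.27 for NDUFA11.

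Complex III carries electrons from ubiquinol to cytochrome c. Among its 9 tested members 1 was called lower and 2 higher, and the median was 0.13. That is 33.3% called, compared with 43.9% of all genes at 10 CPM or more (27.7% lower, 16.2% higher). Its redox subunits were not called. UQCRFS1, the Rieske iron-sulfur protein, had 97.8, 102 and 101 CPM in knockdown libraries and 108, 94.1 and 108 CPM in controls (-0.05 ± 0.08, edgeR adjusted p = 0.715). CYC1, cytochrome c1, had 724, 577 and 667 CPM in knockdown libraries and 692, 845 and 770 CPM in controls (-0.23 ± 0.11, edgeR adjusted p = 0.125). Both overlapped between groups. The core protein UQCRC2 fell, with 24.8, 28.3 and 26.5 CPM in knockdown libraries and 35.2, 32.0 and 32.5 CPM in controls (-0.32 ± 0.09, edgeR adjusted p = 0.0163; the call was lost in 4 of 20 settings), and its partner UQCRC1 was at -0.22 ± 0.10 (edgeR adjusted p = 0.104).

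UQCR10 (ENSG00000184076, chr22:29767369-29770413, plus strand), a small accessory subunit next to the Rieske protein, rose most among the members. It had 118, 116 and 119 CPM in knockdown libraries and 80.01, 76.6 and 83.4 CPM in controls, a 1.47-fold higher level with little spread within either group (0.56 ± 0.08, edgeR adjusted p = 0.000391, 0.52 to 0.62 over settings). UQCRQ, a subunit beside cytochrome b, had 278, 286 and 302 CPM in knockdown libraries and 221, 228 and 251 CPM in controls, again without overlap (0.31 ± 0.08, edgeR adjusted p = 0.0162; the call was lost in 3 of 20 settings). UQCRB (0.23 ± 0.08, edgeR adjusted p = 0.0597) missed the threshold, and 7 of 20 settings called it higher. UQCRH was at 0.13 ± 0.09 (edgeR adjusted p = 0.289), and its near-identical gene UQCRHL, which can share its reads, was at 0.12 ± 0.09 (edgeR adjusted p = 0.296).

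Complex IV, cytochrome c oxidase, takes its catalytic core from the mitochondrial genome, and its nuclear members regulate and stabilise it. Among its 11 members none was called lower (0 of 11) and 1 higher, and the median was 0.01, with a range from -0.15 for COX6A1 to 0.25 for COX7C. That is 9.09% called, compared with 43.9% of all genes at 10 CPM or more (27.7% lower, 16.2% higher). COX4I1, the regulatory subunit, had 847, 804 and 866 CPM in knockdown libraries and 795, 796 and 841 CPM in controls, which overlap (0.05 ± 0.08, edgeR adjusted p = 0.668). COX5A had 147, 165 and 159 CPM in knockdown libraries and 169, 170 and 171 CPM in controls, lower in each library but not past the threshold (-0.12 ± 0.08, edgeR adjusted p = 0.281). COX8A rose, with 197, 198 and 169 CPM in knockdown libraries and 158, 159 and 158 CPM in controls (0.25 ± 0.08, edgeR adjusted p = 0.0463). That call was lost in 12 of 20 settings, among them the fits without any 1 of 5 libraries.

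**Figure D3:**
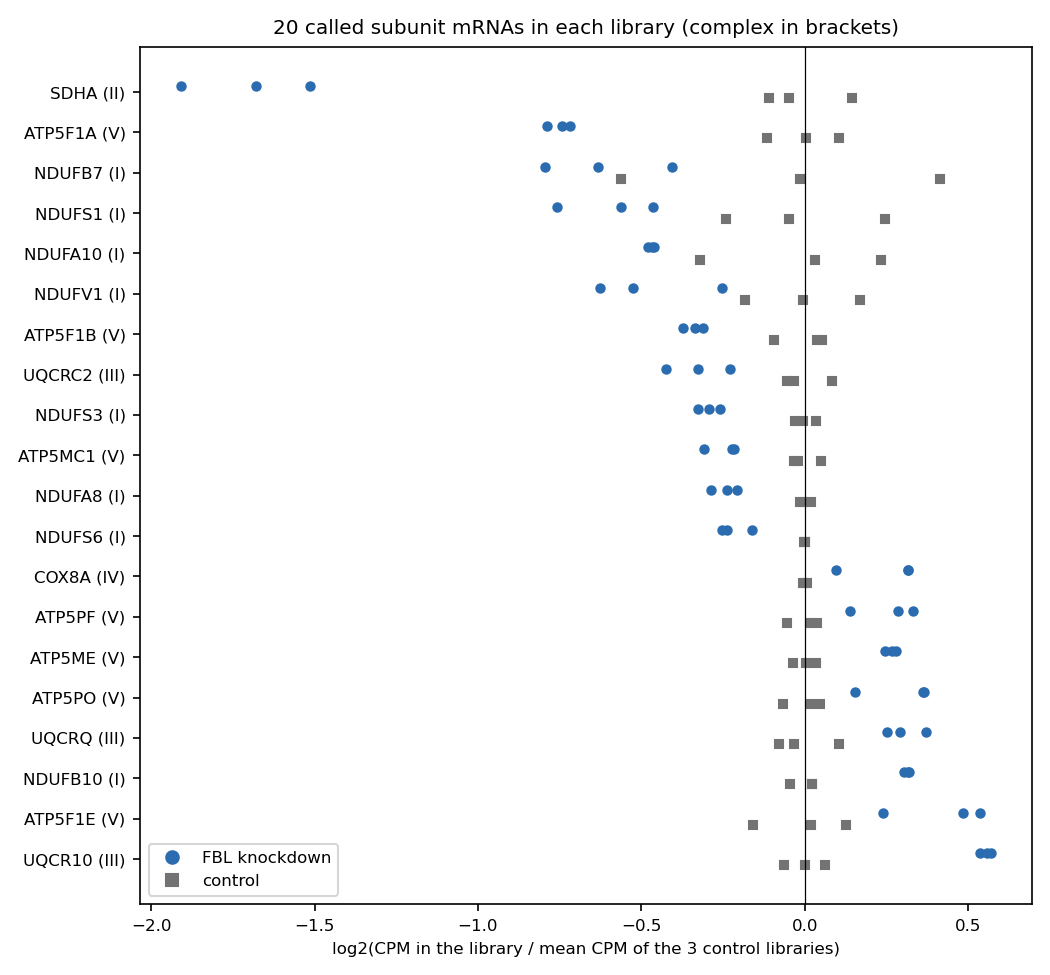
Log2 ratio of the CPM in each library to the mean CPM of the 3 controls (x axis) for 20 called subunit mRNAs (y axis). Blue circles are FBL knockdown libraries and grey squares control libraries. Knockdown libraries lie to the left of all controls for 11 of the 12 lower members drawn, with NDUFB7 the exception, and to the right for all 8 higher members.

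Complex V makes ATP in its F1 head, a ring of alpha and beta subunits around a stalk of gamma, delta and epsilon. Among its 18 tested members 3 were called lower and 4 higher, the median was 0.05, and both directions occurred within F1. That is 38.9% called, near the 43.9% of all genes at 10 CPM or more (27.7% lower, 16.2% higher). ATP5F1A (ENSG00000152234, chr18:46080248-46104334, minus strand), the alpha subunit, had 178, 181 and 172 CPM in knockdown libraries and 320, 275 and 298 CPM in controls, a wide gap (-0.75 ± 0.08, edgeR adjusted p = 0.000125, range over settings -0.81 to -0.68). ATP5F1B, the catalytic beta subunit and the most abundant member in CPM, had 1110, 1138 and 1156 CPM in knockdown libraries and 1490, 1345 and 1474 CPM in controls (-0.34 ± 0.08, edgeR adjusted p = 0.00903). The call of ATP5F1B was lost without control replicate 3 and without knockdown replicate 3. ATP5F1C, the gamma subunit, was at -0.03 ± 0.10 (edgeR adjusted p = 0.82) and ATP5F1D, the delta subunit, at -0.17 ± 0.19 (edgeR adjusted p = 0.516).

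ATP5F1E (ENSG00000124172, chr20:59025467-59032382, minus strand), the small epsilon subunit, rose, with 243, 289 and 299 CPM in knockdown libraries and 209, 185 and 225 CPM in controls (0.43 ± 0.10, edgeR adjusted p = 0.00972). The groups did not overlap, and the call was lost without knockdown replicate 2. Alpha and beta are present in equal number in the enzyme, yet per length ATP5F1A stood at 16.2 ± 0.473 RPKM in knockdown and 27.3 ± 1.97 RPKM in control libraries, and ATP5F1B at 488 ± 5.05 and 620 ± 32.0 RPKM (SD, n = 3 each). The table gives ATP5F1A a length of 10908 bases and ATP5F1B 2322 bases, so the exons counted for ATP5F1A bear on its value per length.

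In the membrane part and the peripheral stalk 1 of 13 tested members fell and 3 rose (median 0.06). That is 30.8% called, compared with 43.9% of all genes at 10 CPM or more (27.7% lower, 16.2% higher). ATP5MC1, 1 of 3 genes for the rotating c ring, had 220, 207 and 220 CPM in knockdown libraries and 266, 251 and 253 CPM in controls (-0.25 ± 0.08, edgeR adjusted p = 0.0284). This call was lost in 8 of 20 settings, among them the fits without any 1 of 4 libraries. The other c ring genes were at -0.06 ± 0.08 for ATP5MC2 (edgeR adjusted p = 0.583) and -0.20 ± 0.08 for ATP5MC3 (edgeR adjusted p = 0.0744). ATP5PO, the stalk subunit that binds the top of F1, had 37.0, 42.8 and 42.8 CPM in knockdown libraries and 34.3, 31.8 and 33.6 CPM in controls (0.30 ± 0.09, edgeR adjusted p = 0.0256). ATP5PF, another stalk subunit, had 135, 154 and 149 CPM in knockdown libraries and 124, 118 and 126 CPM in controls (0.25 ± 0.08, edgeR adjusted p = 0.0357). ATP5ME, a small membrane subunit, had 109, 107 and 110 CPM in knockdown libraries and 88.3, 90.7 and 92.7 CPM in controls (0.26 ± 0.07, edgeR adjusted p = 0.019). The groups did not overlap for any of these 3 genes. Of 20 settings, 5 lost the call of ATP5PO, 8 that of ATP5PF and 6 that of ATP5ME. ATP5MGL, a gene related to ATP5MG, was near the filter at 0.176 ± 0.0478 CPM in knockdown and 0.21 ± 0.0243 CPM in control libraries (SD, n = 3 each).

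Some called members overlap genes on the opposite strand, and without a known strand setting their reads cannot be told apart. ATP5ME shares 579 of 940 exon bases with MYL5, which was itself higher at 0.24 (edgeR adjusted p = 0.0414) and averaged 65.5 CPM in knockdown and 55.5 CPM in control libraries. ATP5F1E shares 1188 of 5126 exon bases with TUBB1, which averaged 0.518 CPM in knockdown and 0.557 CPM in control libraries. UQCRQ shares 306 of 1472 with GDF9 and ATP5PF 413 of 2043 with GABPA, and neither neighbour was called (edgeR adjusted p = 0.433 and 0.643). ATP5PO shares 300 of 3336 with LINC00649, which averaged 18.5 CPM in knockdown and 13.4 CPM in control libraries and was not called (0.47 ± 0.21, edgeR adjusted p = 0.117). Among lower members, NDUFS3 shares 234 of 3670 with CELF1, which was itself lower at 28.1 CPM in knockdown and 37.8 CPM in control libraries (-0.43 ± 0.09, edgeR adjusted p = 0.00472). NDUFS1 shares 1411 of 12268 with AC007383.3, and NDUFV1 207 of 5057 with C11orf72.

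Members were then set beside their position in the enzymes and their gene length, with a list of subunits chosen when results of these data were known. Of 15 tested genes described here from a list of catalytic, cofactor-bearing or leading subunits (complex I core subunits, SDHA to SDHD, UQCRFS1, CYC1, COX4I1, COX5A, ATP5F1A and ATP5F1B), 6 fell and 0 rose, with a median log2 fold change of -0.23. Among the 62 members not on the list 6 fell and 8 rose (median 0.06). Over all genes at 10 CPM or more, 27.7% were called lower and 16.2% higher. The 2 sets also differed in gene length, with medians of 4154 and 2200.5 bases. Over members the Spearman rho between log2 fold change and length was -0.26 (n = 78), and it was -0.09 over 7209 genes at 10 CPM or more. These are descriptions across genes, which are not independent replicates. Among members at 10 CPM or more, 6 of 19 longer than 4000 bases fell and 1 rose (median -0.18), and 2 of 9 of up to 1000 bases fell and 3 rose (median 0.10). Over all genes at 10 CPM or more the medians in these length classes were -0.09 and 0.04. Of the longer class 30.4% were called lower and 14.9% higher, and of the shorter 15.5% and 18.7%, so the long members' share of lower calls was near that of long genes in general. With a correction for length in each library, 12 members were called lower and 8 higher, beside 3149 lower and 2990 higher calls over all genes.

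**Figure D4:**
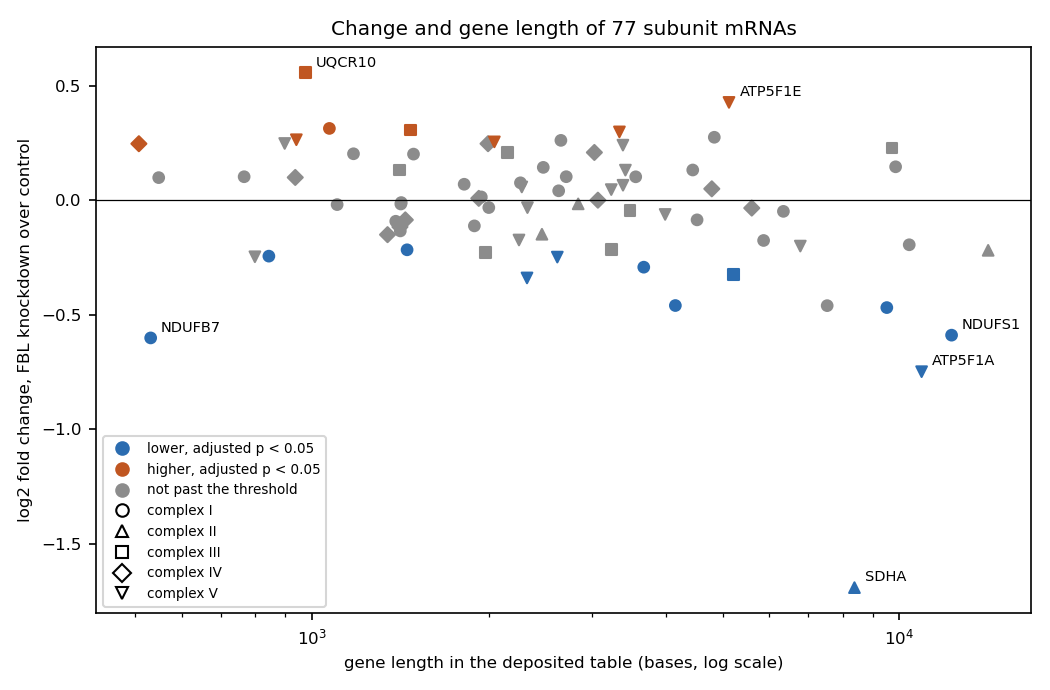
Log2 fold change, FBL knockdown over control (y axis), against gene length in bases on a log scale (x axis) for 77 tested subunit mRNAs. Marker shape gives the complex and colour the call. SDHA, ATP5F1A and NDUFS1 lie low among the long genes, and higher members occur from 507 to 5126 bases.

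The summed level of all 79 members was 13672 to 14386 CPM in knockdown libraries and 14157 to 14851 CPM in controls, ranges that overlap. Complex II summed to 216 to 231 CPM in knockdown libraries and 276 to 308 CPM in controls, and complex V to 4653 to 4941 CPM and 5010 to 5307 CPM, with no overlap in either. Without SDHA the sum of complex II was 196 to 216 CPM in knockdown libraries and 223 to 245 CPM in controls, a narrower gap with no overlap. Without ATP5F1A and ATP5F1B the sums of complex V overlapped, at 3365 to 3613 CPM in knockdown libraries and 3390 to 3534 CPM in controls. The sums of complex I (3396 to 3497 CPM in knockdown and 3417 to 3610 CPM in control libraries), complex III (2159 to 2335 and 2218 to 2383 CPM) and complex IV (3072 to 3430 and 2897 to 3272 CPM) overlapped.

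Other genes of the pathway were described from lists. Of 44 assembly factors 10 fell and 7 rose (median 0.04), which is 38.6%, compared with 32.8% of all tested genes and 43.9% of those at 10 CPM or more. ATPAF2, which helps assemble F1 through the alpha subunit, fell by 1.10 ± 0.11 (log2, edgeR adjusted p = 8.65e-05), with 9.15, 7.19 and 8.23 CPM in knockdown libraries and 15.8, 18.7 and 18.0 CPM in controls. The complex I assembly factors ACAD9 (-0.76 ± 0.09), FOXRED1 (-0.57 ± 0.09) and TIMMDC1 (-0.28 ± 0.10) and the complex III factors UQCC1 (-0.64 ± 0.08), UQCC3 (-0.51 ± 0.18) and BCS1L (-0.35 ± 0.09) were lower (edgeR adjusted p from 0.000187 to 0.0471), and among these the groups of UQCC3 overlapped. For complex IV, COX15 (-0.51 ± 0.09) and SCO1 (-0.47 ± 0.10) fell while COX10 (0.47 ± 0.10), which acts before COX15 in the synthesis of haem A, SURF1 (0.28 ± 0.08) and COA5 (0.42 ± 0.11) rose (edgeR adjusted p from 0.00179 to 0.0162). The other called assembly factors were COA7, lower at -0.33 ± 0.10, and COX19, COX20, NDUFAF4 and NDUFAF8, higher by 0.24 to 0.32 (edgeR adjusted p from 0.0253 to 0.0437).

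Of 14 genes for electron carriers and coenzyme Q synthesis 5 fell and 1 rose (median -0.11), 42.9% of the list, near the 43.9% of all genes at 10 CPM or more. CYCS, cytochrome c, which shuttles electrons between complexes III and IV, had 46.3, 49.0 and 47.1 CPM in knockdown libraries and 81.6, 64.8 and 71.6 CPM in controls (-0.62 ± 0.10, edgeR adjusted p = 0.000811). The methyltransferase COQ5 fell (-0.57 ± 0.08, edgeR adjusted p = 0.000558), and so did the kinase-like COQ8A (-0.41 ± 0.09), COQ10B (-0.46 ± 0.13) and PDSS2 (-0.30 ± 0.10; edgeR adjusted p from 0.00554 to 0.0368). The hydroxylase COQ6 rose by 0.28 ± 0.08 (edgeR adjusted p = 0.0227). Among 10 regulators of these genes 5 fell and 1 rose (median -0.29), beside 17.0% of all tested genes lower and 15.8% higher. Their median level was 19.5 CPM, and of all genes at 10 CPM or more 27.7% were lower and 16.2% higher. PPRC1, a coactivator of the PGC-1 family, was at -0.66 ± 0.08, the mitochondrial RNA polymerase POLRMT at -0.59 ± 0.15, the nuclear receptor ESRRA at -0.46 ± 0.09, NRF1 at -0.40 ± 0.08 and TFB2M at -0.38 ± 0.12, while YY1 rose by 0.24 ± 0.08 (edgeR adjusted p from 0.000211 to 0.048). GABPA (-0.08 ± 0.12), GABPB1 (-0.07 ± 0.10) and TFAM (-0.11 ± 0.12) were not called (edgeR adjusted p from 0.511 to 0.643). Of 5 tested genes from a list of tissue isoforms, paralogues and other related genes 2 fell and 0 rose. They were NDUFAB1, the acyl carrier protein of complex I (-0.30 ± 0.09, edgeR adjusted p = 0.0309), and COX8C (-0.55 ± 0.13, edgeR adjusted p = 0.00748). NDUFAB1 is a complex I subunit that the symbol rule did not match, so the complex I counts leave it out. COX4I2, COX6B2 and COX7A1 stood at 0.108 CPM or less in every library.

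The 13 mRNAs of the mitochondrial genome, whose products join complexes I, III, IV and V, summed to 120079 to 163489 CPM in knockdown libraries and 104721 to 144837 CPM in controls. Of these 1 rose and 0 fell (7.69% called), compared with 41.3% of all genes at 100 CPM or more called and 13.6% called higher. MT-ND3, of the membrane arm of complex I, had 3117, 3832 and 3118 CPM in knockdown libraries and 2079, 2545 and 2341 CPM in controls (0.53 ± 0.11, edgeR adjusted p = 0.00467). Of the 13, 11 lay above 0 and 2 below (median 0.18), and the groups overlapped for 12.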

How the data were processed

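The authors deposited whole-number counts per Ensembl gene with gene lengths for 6 libraries. Trimming, alignment and counting used cutadapt 1.18, HISAT2 and featureCounts on GRCh38, with edgeR downstream, per the submitters' processing notes. For strand setting, multi-mapping reads and annotation release, the detail is not given in the sources used here. A second deposited table holds RPKM, and all 191796 values were recomputed from the counts within a relative tolerance of 1e-06. All rows carried a gene identifier.

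R 4.3.3 with edgeR 4.0.16 was used. The filterByExpr defaults (minimum count 10, minimum total 15) left 18486 of 31966 genes, with trimmed-mean (TMM) scaling. Groups were compared by edgeR's quasi-likelihood test on group alone, with Benjamini-Hochberg adjustment over all tested genes and a threshold of 0.05. The SE comes from the F statistic, and the SDs are over 3 libraries. Members and lists were chosen with earlier results of these data known.

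Members given per library were the listed catalytic or cofactor-bearing subunits, up to 4 called members per complex and direction with the smallest adjusted p, and the 8 called members of largest change. NDUFA10, NDUFA8, NDUFS6 and the uncalled members are described beyond this rule, to account for the members. The result of 1 called member is not reported here, although the counts over all members and over complex I include it. Exons, positions and GC content came from GENCODE v29 on GRCh38, matched for 31848 of 31966 genes, and promoters from RefSeq on GRCh38.p14.

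The alternatives were RLE, upper-quartile and library-size scaling, no filter, a stricter filter (1 CPM or more in 3 libraries, mean 5 CPM or more), DESeq2 1.42.0, limma 3.58.1 (voom, and limma-trend with a pseudocount of 1 or 0.1 on the log2 scale of RPKM, which understates changes of low genes), the omission of mitochondrial genome genes, corrections for length and GC content, a replicate block and the omission of each library. The legacy edgeR dispersion was added after seeing the data. The test was tested on simulated data with known changes.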

Additional observations from a re-analysis of the deposited data

How the results depend on the processing

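Of the 21 called members, 6 kept their call under all 20 alternatives, 15 lost it under at least 1, and 0 changed direction. Of the 57 uncalled members, 15 gained a call under at least 1. The calls lost most often were those of NDUFS6 (15 of 20), COX8A (12) and NDUFB7 (11). With each library left out in turn, calls over all genes ranged from 3923 to 6942, lower calls from 1835 to 3644, higher calls from 1861 to 3298, lower members from 4 to 13 and higher members from 3 to 12. With the replicate block, 3833 genes were called, 1987 lower and 1846 higher, and with them 5 lower and 3 higher members. Replicate numbers were not taken to pair the libraries, since the deviations of same-numbered libraries from their group means correlated at -0.28, -0.20 and 0.04, and not every library correlated best with its own number. The stricter filter gave 11 lower and 12 higher members, and 1924 higher genes among the 9174 that it left, of which 44.2% were called. Upper-quartile scaling gave 9 lower and 14 higher members, and over all genes 3597 higher and 2528 lower calls, against 2920 and 3140. Library size alone and the absence of a filter each gave 5 higher members, with 29.6% of 18486 and 17.5% of 31966 genes called. The GC correction gave 15 higher and 18 lower members among 8460 calls over all genes (45.9%). The cause of these shifts was not tested. The median of all tested genes lay between -0.02 and 0.06 under the alternatives. NDUFV2, NDUFA7 and ATP5MGL were at 0.236 CPM or less in every library, so their changes are poorly measured. The reason for these low levels was not tested.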
